A study of Mus musculus with 25 samples.

Results

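The genes described here encode the proteins of the cytoplasmic ribosome, and the data are the chromatin contacts that touch their 10 kb bins. Members were all gene symbols in the authors' annotation of either TKO interaction list that start with Rpl or Rps followed by a digit, p or a, without the Rps6k kinases, antisense genes and pseudogenes. This gave 84 genes of 12695 annotated genes, 51 named Rpl for the large subunit and 33 named Rps for the small subunit. They occupied 83 bins of 10485 annotated bins on 19 chromosomes, because 1 bin holds 2 members. Of these 84 genes, 14 lay on chromosome 7 and 8 on chromosome 17. The annotation comes from the TKO lists alone, so a listed contact in those lists follows from the choice of members. Of 89 RefSeq symbols that meet the rule, 5 had no annotated bin: Rpl10l, Rpl32l, Rpl37rt, Rps23rg1 and Rps27rt.

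A ribosome has a small subunit that reads the mRNA and a large subunit that forms peptide bonds, and each cell must supply their proteins in matched amounts. The genes are therefore transcribed at a high level in almost every dividing cell, from promoters that often start within a run of pyrimidines. Their promoters carry acetylation of histone H3 at lysine 27 (H3K27ac), a mark of active promoters and enhancers, and the same mark on distal elements is used to map enhancer contacts.

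The study followed 3D genome contacts from fibroblasts to pluripotent cells. HiChIP ligates DNA ends that lie near each other in the nucleus and enriches the ligated fragments with an antibody, here against H3K27ac or against the transcription factor KLF4, whereas Hi-C uses no antibody. The 25 libraries formed 9 groups, with 1 interaction list for each group. V6.5 embryonic stem (ES) cells in 2i medium gave 2 H3K27ac, 4 KLF4 and 2 Hi-C libraries. Mouse embryonic fibroblasts (MEFs) came from rtTA3-OKSM embryos at E13.5, each heterozygous for an Oct4-GFP reporter, the OKSM cassette and rtTA3, and passage 3 cells gave 2 H3K27ac and 2 Hi-C libraries. The same kind of MEFs was treated with doxycycline and ascorbic acid for 3 days (3 KLF4 libraries, bulk cells) or 6 days (4 KLF4 libraries, SSEA1-positive cells). Cells labelled TKO, a name that the labels do not spell out, are given as V6.5 in 2i medium, without doxycycline (0 h, 3 H3K27ac libraries) or with it for 24 h (3 H3K27ac libraries). All fibroblasts, including untreated ones, carried the cassette, and V6.5 is a single line. The labels do not say whether libraries of a group came from separate cultures or embryos, so p-values measure only the spread between these libraries.

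The label was checked in 1 respect: all 83 bins (100%, 95% Wilson interval 95.6% to 100%) held an H3K27ac peak at 0 h and at 24 h, against 7505 of 10485 annotated bins (71.6%). Genes with such a peak at both times, 9396 in all, therefore serve as a second background below. Of the 83 bins, 31 (37.3%) held more than 1 gene symbol, against 19.6% of annotated bins, and contacts of such a bin cannot be assigned to 1 gene. For 3 members the RefSeq start lay outside the authors' bin. RefSeq places Rpl3 at chr15:80077781-80083406, while its assigned bin begins at 80090001 and also carries Syngr1. The start of Rps24 lies just beyond its bin, and the start of Rps2 lies in the adjacent bin that carries Rpl3l. Values given for Rpl3 below are those of the assigned bin.

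HiChIP libraries held 48.7 to 181 M contacts, as count over CPM implies, with medians of 11 to 47 counts per listed pair and library, and Hi-C lists held 5.58 to 10.02 M counts per library. MEF H3K27ac libraries, at 74.98 and 105 M contacts, were shallower than those of ES cells, at 166 and 168 M, and the part of this depth in the numbers of listed pairs was not tested. Libraries 1 and 2, and 3 and 4, of ES KLF4 agreed within counting noise, as did libraries 1 and 3 of TKO at 24 h, so each such pair was counted as 1 replicate in the tests. The 4 day 6 libraries agreed within counting noise in every pair (chi-square p from 0.24 to 0.851). With no differing pair to compare against they were kept as 4 replicates, and the spread between them was no larger than counting noise. The cell types matched their labels by marker genes: all 8 annotated ES cell markers had more H3K27ac pairs in ES cells, and 6 of 7 fibroblast markers had more in MEFs.

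The promoters below are 3 of 6, with 1 window taken for each gene that has a window and a KLF4 contact listed at its bin in all of day 3, day 6 and ES cells. RefSeq promoter windows (GRCm38, matching mm10, named in the submitters' processing notes) were found for 64 of 84 members. Each line gives the 250 bases before the start of transcription, 5′ to 3′, with capitals for the sequence CACGCCC, 1 of the 2 KLF4 core sequences searched (the other was CACACCC; both strands; the 2 do not overlap as letters).
Rps18, chr17:33955666-33955915, minus strand: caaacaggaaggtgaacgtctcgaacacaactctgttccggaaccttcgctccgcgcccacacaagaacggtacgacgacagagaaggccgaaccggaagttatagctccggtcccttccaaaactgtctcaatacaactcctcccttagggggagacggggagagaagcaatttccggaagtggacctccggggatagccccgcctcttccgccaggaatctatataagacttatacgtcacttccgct
Rps19, chr7:24884342-24884591, plus strand: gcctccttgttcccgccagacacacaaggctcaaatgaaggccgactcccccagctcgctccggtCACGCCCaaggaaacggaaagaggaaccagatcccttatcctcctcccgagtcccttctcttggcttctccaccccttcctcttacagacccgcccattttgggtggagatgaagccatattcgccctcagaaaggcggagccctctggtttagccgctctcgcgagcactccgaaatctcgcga
Rps28, chr17:33824563-33824812, minus strand: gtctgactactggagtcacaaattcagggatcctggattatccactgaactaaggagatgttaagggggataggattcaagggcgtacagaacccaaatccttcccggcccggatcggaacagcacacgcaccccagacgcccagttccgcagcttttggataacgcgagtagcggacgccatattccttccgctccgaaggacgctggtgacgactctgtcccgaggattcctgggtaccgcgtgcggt
Of these 6 windows, cut to 250 bases, that of Rps19 held a core, at position -185 from the start, and those of Rps18, Rps28, Rpl3l, Rpl7l1 and Rps27l held 0. Some of the 6 genes have further windows. Over every window, with the 50 bases from the start added, Rps19 held both cores and Rpl3l held CACACCC. Rps18, Rps28, Rpl7l1 and Rps27l held neither. Over windows of 250 bases before to 50 bases from the start, CACGCCC was found in 14 of 76 member windows (18.4%) and in 8.44% of all 32851 windows. CACACCC was found in 4 of 76 (5.26%), against 7.95% of all windows. Among the members with a window, an ES KLF4 contact was listed for 9 of 14 with either core (64.3%) and for 29 of 50 without one (58.0%).

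The start sites shown next illustrate the pyrimidine start, defined here as a C at the first transcribed base followed by 4 bases that are each C or T. Each line covers 25 bases before and 15 from the start, with those first 5 transcribed bases in capitals, for the 5 matching members with the most H3K27ac contacts.
Rps18, chr17:33955651-33955690, minus strand: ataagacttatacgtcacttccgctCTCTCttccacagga
Rpl28, chr7:4792940-4792979, plus strand: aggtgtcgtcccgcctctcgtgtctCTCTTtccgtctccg
Rps10, chr17:27635230-27635269, minus strand: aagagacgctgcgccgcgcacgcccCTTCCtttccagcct
Rps21, chr2:180257354-180257393, plus strand: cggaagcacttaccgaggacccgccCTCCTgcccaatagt
Rplp2, chr7:141447626-141447665, plus strand: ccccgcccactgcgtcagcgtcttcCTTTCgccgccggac
In all, 13 of 76 member windows (17.1%) began this way, against 2.51% of all windows.

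Nearly every ribosomal protein gene had an H3K27ac contact in ES cells, and about as many as other genes had one in MEFs. A listed pair is a pair of 10 kb bins that passed the authors' cutoffs. In ES cells 84 of 84 members (100%, 95% Wilson interval 95.6% to 100%) had a listed H3K27ac pair, against 81.1% of all annotated genes and 87.3% of genes with a peak at both times. In MEFs 50 of 84 members (59.5%, interval 48.8% to 69.4%) had one, against 57.7% and 61.3%. The median was 6 pairs per member in ES cells and 1 in MEFs, while all annotated genes had medians of 3 and 1. Members in bins with a single symbol had the same ES median of 6, against 3 for all such genes, so the excess was also present without shared bins.

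The 2 subunits had similar numbers of H3K27ac contacts. In ES cells the median was 5.5 pairs for the 46 large-subunit genes, 6 for the 31 small-subunit genes, and 6 for 7 further genes that the rule admits (Rpl22l1, Rpl36al, Rpl39l, Rpl3l, Rpl7l1 and Rps27l, which are paralogues, and Rps19bp1, a binding protein). Genes of related function had medians below and above that of the members in the same list. Mitochondrial ribosomal protein genes had a median of 4 pairs, with a pair at 89.2% of genes. Translation factor genes had a median of 6.5, with a pair at 91.4%, and genes of ribosome assembly and rRNA synthesis had a median of 5, with a pair at 89.3%.

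**Figure D1:**
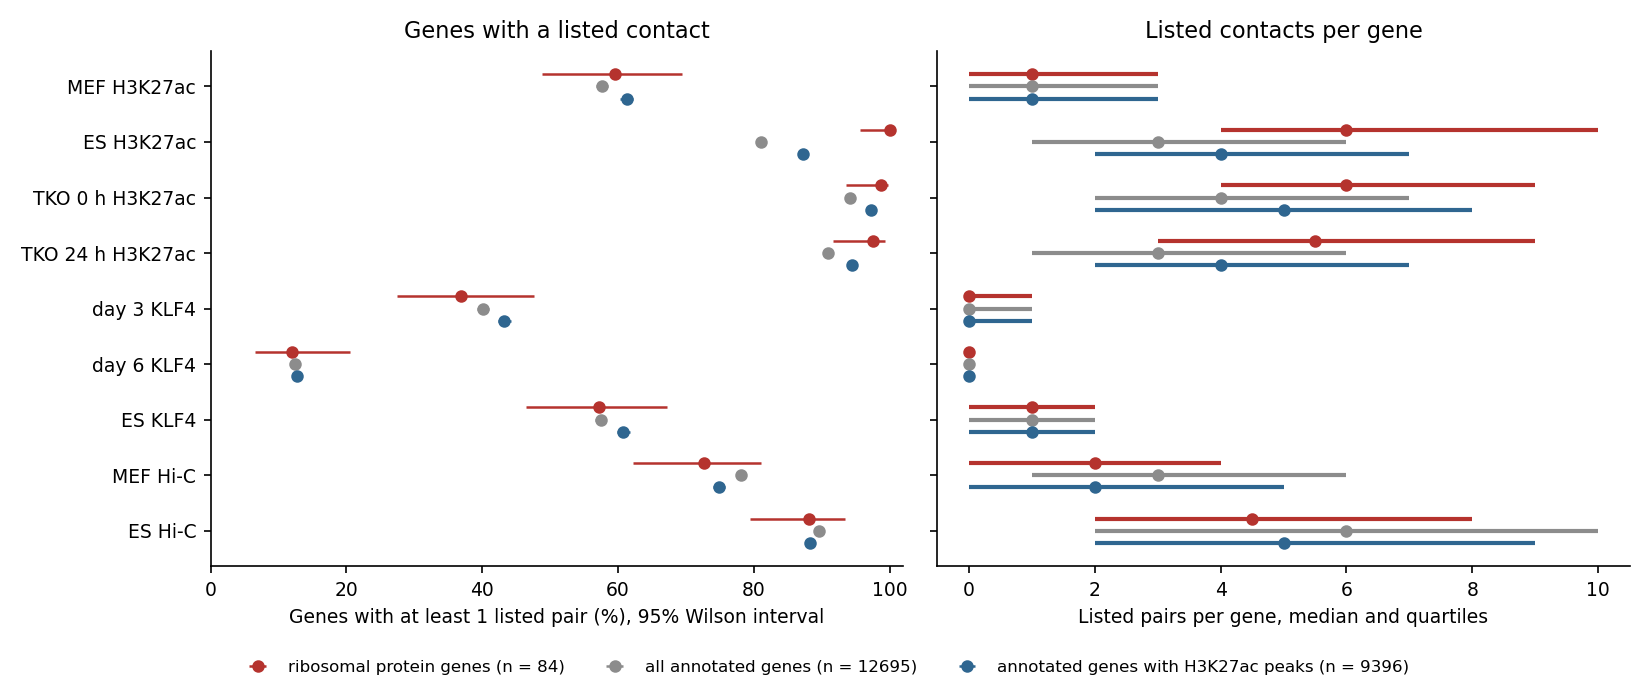
Left, percent of genes with at least 1 listed pair in each of the 9 lists, with 95% Wilson intervals; right, listed pairs per gene as median and quartiles, for ribosomal protein genes, all annotated genes and annotated genes with an H3K27ac peak at both times. Ribosomal protein genes stand apart in ES H3K27ac (100% with a pair, median 6) and lie near the other genes in MEF H3K27ac (59.5%, median 1).

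Members with many H3K27ac pairs over the 4 lists came from both subunits. Rps14, a small-subunit protein at the mRNA platform, had 7 pairs in MEFs, 22 in ES cells, 22 in TKO cells at 0 h and 20 at 24 h. Rps28 had 6, 19, 18 and 17 pairs in the same order. Both genes had more pairs in each of the 3 ES-type lists than in MEFs. Rpl26, near the exit of the peptide tunnel, had 9, 17, 16 and 15 pairs, and Rps18 had 8, 16, 15 and 14. Rpl4, another protein of the peptide tunnel, had 1, 17, 18 and 15 pairs, and Rpl19 had 6, 13, 14 and 12. Rpl4 differed from the rest of this group in having nearly no MEF contact, and its bin also carries Snapc5 and Zwilch. At the other end, Rpl35 had 0, 2, 0 and 1.

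The genes of the ribosomal stalk, which recruits the elongation factors, differed in their number of contacts. Rplp0, its base, had 2 pairs in MEFs, 3 in ES cells, 5 in TKO cells at 0 h and 4 at 24 h. Rplp1 had 2, 3, 3 and 3 pairs, and Rplp2 had 2, 7, 7 and 7. Of the 3, Rplp2 alone exceeded the ES median of 6. Rpsa, a small-subunit protein also described as a laminin receptor, had 0, 6, 2 and 3 pairs.

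**Figure D2:**
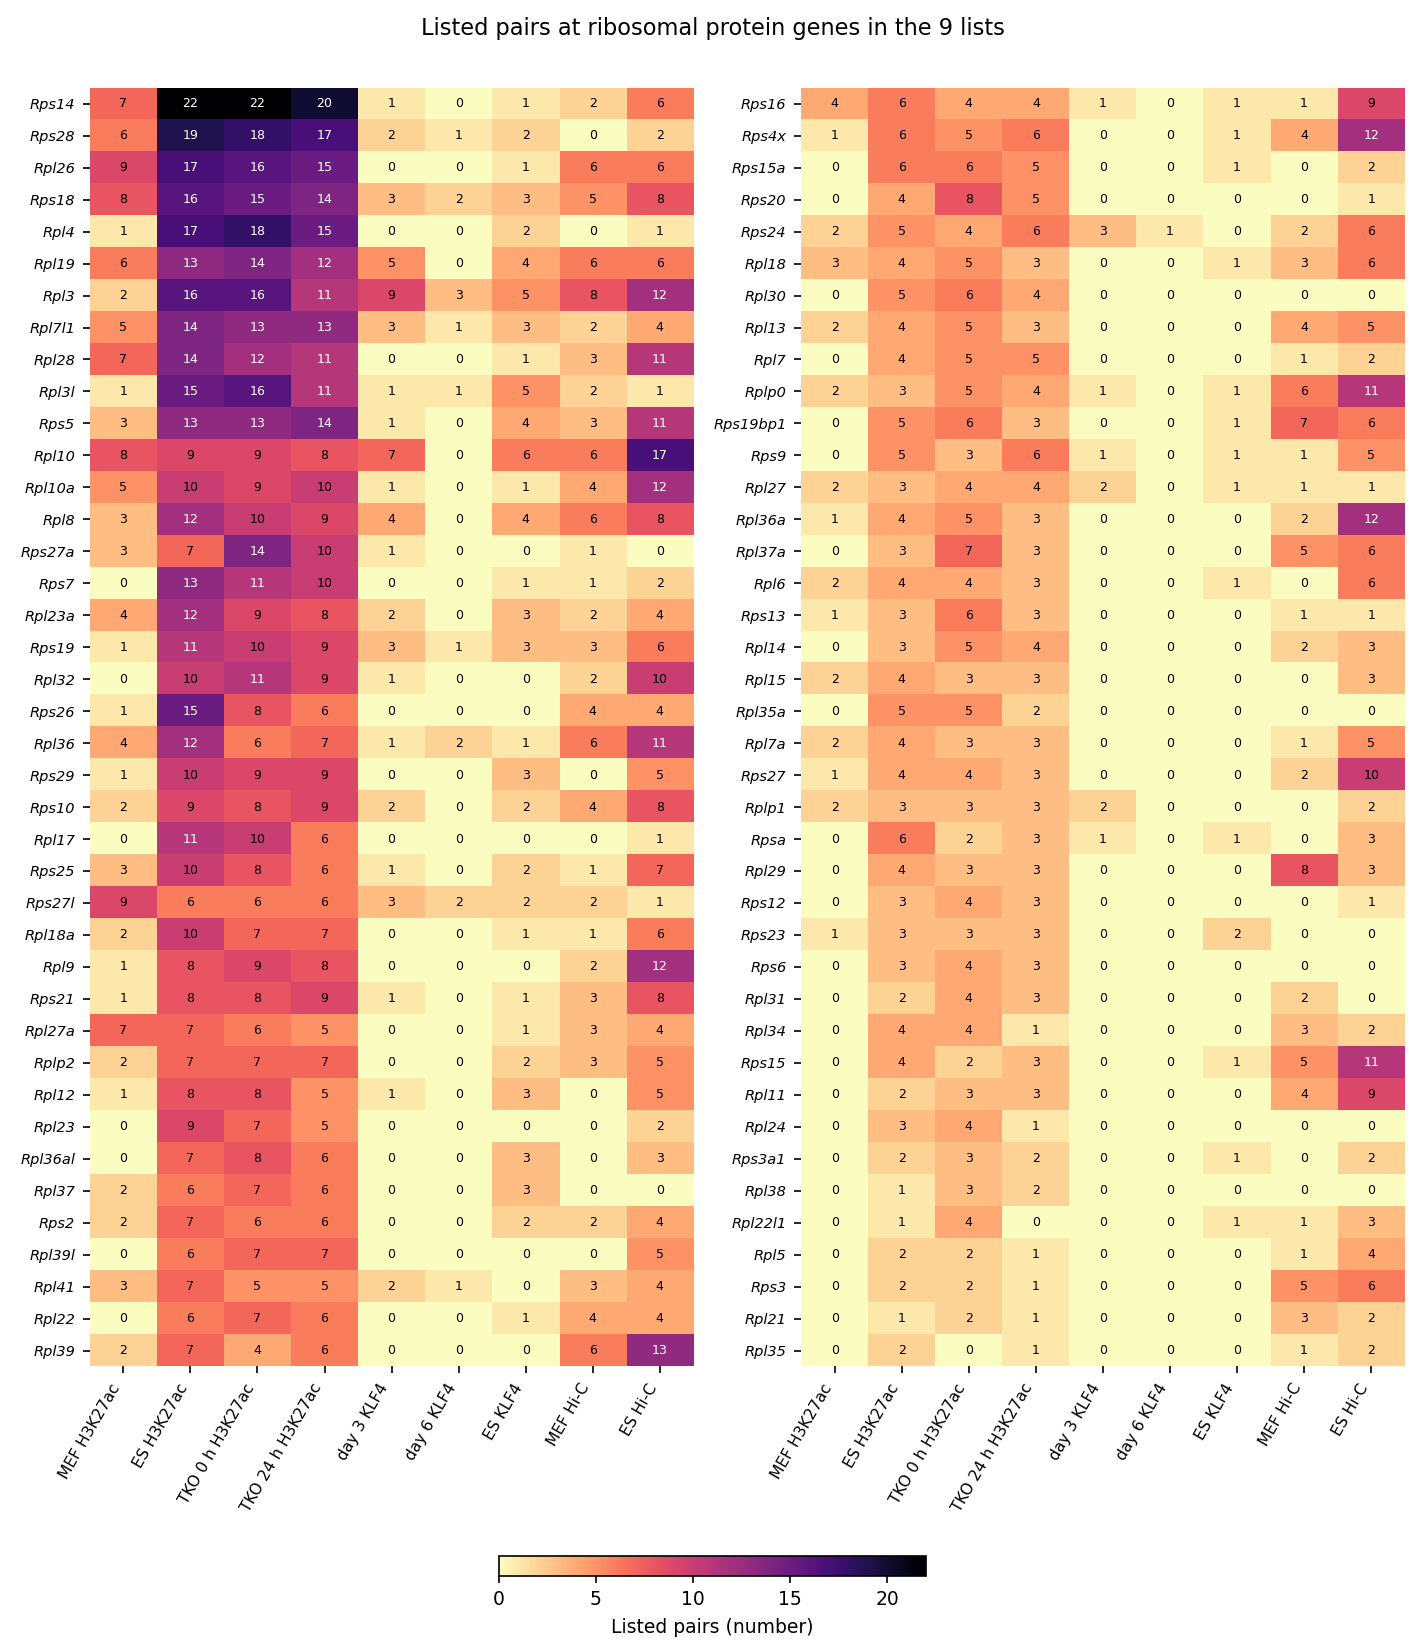
Listed pairs at each of 80 of the 84 ribosomal protein genes (vertical, ordered by their sum over the H3K27ac lists) in the 9 lists (horizontal), with the number written in each cell and colour by number. Rps14 reaches 22 pairs in ES H3K27ac, and most cells of the day 6 KLF4 column are 0.

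Between MEFs and ES cells, almost all members had more H3K27ac contacts in the ES list. The ES cells are the V6.5 line in 2i medium and not cells reprogrammed from these MEFs. Differences of cell type and of line therefore cannot be told apart. A higher number was found for 82 of 84 members, an equal number for Rpl27a (7 in each) and a lower number for Rps27l, a paralogue of Rps27 (9 in MEFs, 6 in ES cells). Of all annotated genes 65.4% had more and 14.7% had fewer, and of genes with a peak at both times 73.0% had more. The related lists lay between these values: 76.9% of mitochondrial ribosomal protein genes, 77.6% of translation factor genes and 82.1% of assembly genes had more. The median gain was 5 pairs. The largest gains were those of Rpl4 (1 to 17 pairs), Rps14 (7 to 22), Rpl3 (2 to 16), Rpl3l (1 to 15) and Rps26 (1 to 15). The 34 members with no MEF pair included Rpl11, Rpl14, Rpl17, Rpl21, Rpl22, Rpl22l1, Rpl23, Rpl24, Rpl29, Rpl30, Rpl31, Rpl32, Rpl34, Rpl35, Rpl35a, Rpl36al, Rpl37a, Rpl38, Rpl39l, Rpl5, Rpl7, Rps12, Rps15, Rps15a, Rps19bp1, Rps20, Rps3, Rps3a1, Rps6, Rps7, Rps9 and Rpsa. Each group has 1 list, so these counts have no replicate check. Members and backgrounds also entered through listed pairs of TKO cells, given as the same line as the ES cells, and the part of this in the gains was not tested.

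Contacts present in MEFs were mostly still present in ES cells. Of 158 MEF pairs that touch a member, 139 (88.0%) were also listed in ES cells, against 62.0% of pairs at all annotated genes and 69.8% at genes with a peak at both times. Those 139 pairs were 23.1% of the 601 ES pairs at members. In the ES list 34.3% of member pairs spanned 50 kb or more, against 28.9% at all annotated genes, 32.7% at mitochondrial ribosomal protein genes and 38.8% at translation factor genes. For members and all annotated genes this share was 11.6% and 17.1% in ES KLF4 and 48.6% and 49.2% in ES Hi-C. The longest member pair spanned 290 kb, while the longest pair at any annotated gene spanned 1930 kb.

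Many of the shared pairs also had a stronger H3K27ac HiChIP signal in ES cells. This signal depends on the antibody as well as on contact. A change of the mark and a change of contact therefore cannot be told apart here. Strength was tested on the raw counts of pairs listed in both groups, with the quasi-likelihood test of edgeR, Benjamini-Hochberg adjusted over all pairs, and a pair was called at an adjusted p under 0.05. Of 139 member pairs, 61 were called higher in ES cells and 0 lower (43.9%). The percent called over all 17901 pairs was 32, made up of 17.6 higher and 14.4 lower, and both annotated backgrounds gave 30.5. At annotated genes 19.2% were higher and 11.3% lower, and at genes with a peak at both times 20.7% and 9.73%. At an unadjusted p under 0.05, 73 member pairs were higher and 1 was lower, the pair of Rps27l named below. The share of all pairs at this unadjusted level is not given here, so only the adjusted calls can be read against a background. The median log2 fold change was 0.51 for member pairs, -0.04 for all pairs and 0.02 at annotated genes, and 110 of 139 were positive and 29 negative. Called log2 fold changes ran from 0.50 to 2.17, and 32 of 48 genes with a tested pair had at least 1 called pair. The number called was 38 without MEF library 2 and 26 higher and 0 lower with DESeq2, and only 1 pair was called lower in any fit that left out a library, without ES library 2. Without TMM scaling, which shifted the median of all pairs from -0.04 to 0.21, 86 were higher and 0 lower. The share of all pairs called under these alternatives is not given here, so their numbers cannot be read against a background.

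The related gene lists had called pairs in both directions. Mitochondrial ribosomal protein genes had 35 pairs higher and 6 lower in ES cells of 113 tested, with a median log2 fold change of 0.14. Translation factor genes had 27 higher and 8 lower of 98, with a median of 0.23, and assembly genes had 18 higher and 3 lower of 50, with a median of 0.33.

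Large rises were found at genes of both subunits. Rps19, the gene most often mutated in Diamond-Blackfan anaemia, was joined over 20 kb to the bin of Arhgef1 (chr7:24880001 and chr7:24900001, bin starts) at 3.69 and 5.39 CPM in MEFs and at 16.6 and 16.7 in ES cells. Every ES value was above every MEF value, with a log2 fold change of 1.72 (SE 0.21, edgeR quasi-likelihood test, Benjamini-Hochberg adjusted p = 2.46e-09). Rpl7l1, a paralogue of Rpl7, was joined over 20 kb to the bin that begins at chr17:46800001 at 5.07 and 6.36 CPM in MEFs and at 19.8 and 20.7 in ES cells. Its log2 fold change was 1.66, and 4 of its 5 tested pairs were called higher. Rpl28 had 5 called of 7 tested pairs, Rps14 had 4 of 6 and Rps18 had 4 of 8, all higher in ES cells. The pair of Rps18 with the bin of Pfdn6 and Wdr46 had 8.19 and 8.85 CPM in MEFs and 19.8 and 26.8 in ES cells, without overlap. The lowest fold change belonged to the 30 kb pair of Rps27l with the bin of Lactb. It had 3.98 and 5.08 CPM in MEFs and 3.17 and 3.56 in ES cells. Although its groups did not overlap, it was not called (log2 fold change -0.63, edgeR quasi-likelihood test, Benjamini-Hochberg adjusted p = 0.0895). Over all 139 member pairs, the CPM of both groups did not overlap in 107 pairs, 104 higher and 3 lower in ES cells. This background was 44.4% higher and 19.1% lower over all pairs, and 47.8% and 16.3% at annotated genes.

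**Figure D3:**
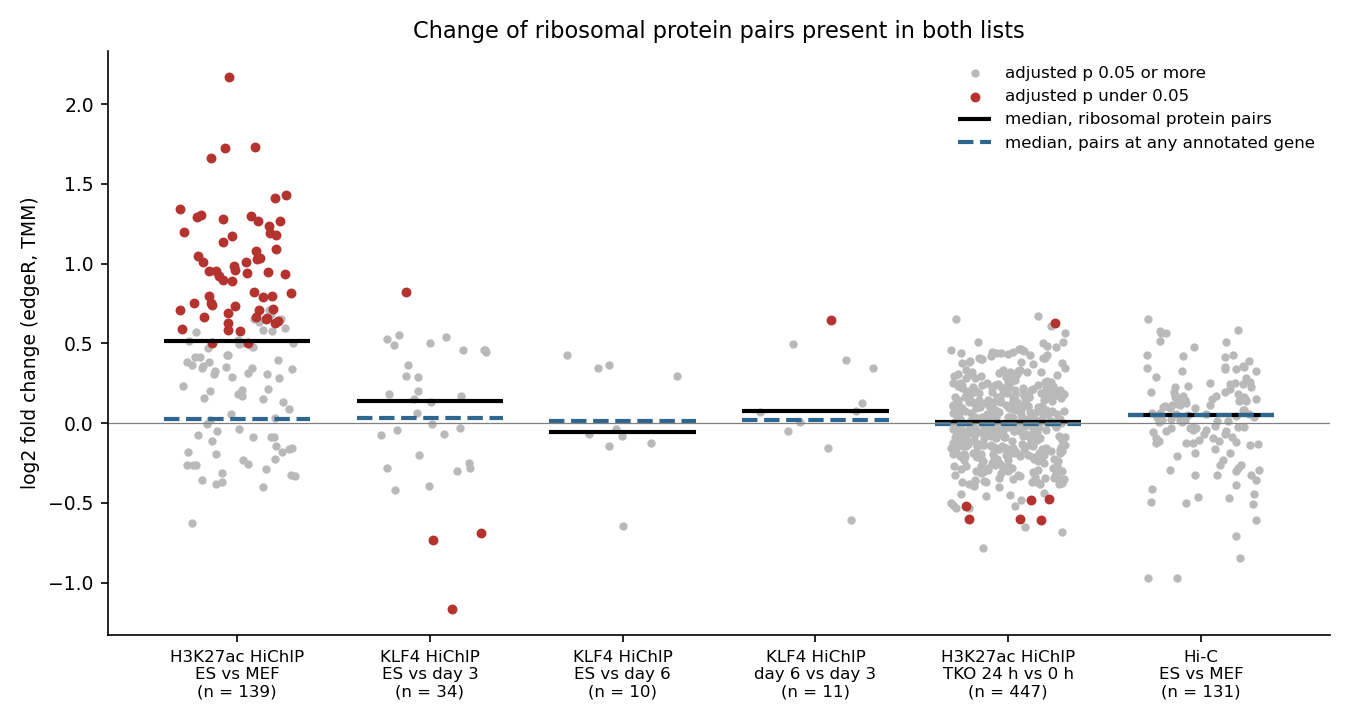
Log2 fold change (edgeR, TMM) of each ribosomal protein pair that is present in both lists, for the 6 comparisons, with called pairs in red, a solid line at the median of these pairs and a dashed line at the median of pairs at any annotated gene. In H3K27ac ES against MEF the 61 called pairs all lie above 0, and in Hi-C no pair is called.

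Hi-C gave no called change at these genes. A Hi-C pair was listed for 61 of 84 members in MEFs (72.6%) and for 74 of 84 in ES cells (88.1%), against 78.1% and 89.6% of all annotated genes. Median numbers were 2 pairs in MEFs and 4.5 in ES cells, against 3 and 6 for all annotated genes, so members had no excess here. The number was higher in ES cells for 60 members (71.4%), lower for 9 and equal for 15, while 73.5% of all annotated genes had more and 11.7% had fewer. For Hi-C only listed counts are known, so the depth of the libraries could not be compared. Of 131 tested member pairs edgeR called 0, with 8 at an unadjusted p under 0.05, and DESeq2 called 0, with 2 at that level. The percent called over all pairs was 0.0322, while their share at the unadjusted level is not given here. The median log2 fold change was 0.05 for members and 0.00 for all pairs. Listed pairs had medians of 22 to 27 counts per library, and at such counts 40 of all 124204 pairs were called.

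The Hi-C signal, in the authors' units of unstated scaling, was also read at the pairs named for Rps19 and Rpl7l1. The Rps19 pair with the Arhgef1 bin had 49.1 and 36.4 in MEFs and 38.9 and 55.2 in ES cells. The groups overlapped, and the Rpl7l1 pair was in neither Hi-C list. In ES cells 56 of 84 members (66.7%) had more H3K27ac than Hi-C pairs, against 28.6% of all annotated genes and 36.6% of genes with a peak at both times. Of the 601 ES H3K27ac pairs at members, 241 (40.1%) were also in the ES Hi-C list, against 51.1% at all annotated genes. These 241 pairs were 57.9% of the 416 Hi-C pairs at members, against 30.4% at all annotated genes. Hi-C and HiChIP lists passed different cutoffs.

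KLF4 contacts were listed for a minority of members during reprogramming and for most members in ES cells. These shares were near or below those of all annotated genes. A KLF4 pair was listed for 31 of 84 members at day 3 (36.9%), for 10 at day 6 (11.9%) and for 48 in ES cells (57.1%). All annotated genes gave 40.1%, 12.5% and 57.4%. The mean number of KLF4 pairs per member was 0.88 at day 3, 0.18 at day 6 and 1.19 in ES cells. For all annotated genes it was 0.98, 0.18 and 1.44. The shares for genes with a peak at both times are not given here. The lists differ in length, with 23720 pairs at day 3, 4047 at day 6 and 24589 in ES cells, so the low day 6 value moves with the short list. In ES cells 45.7% of large-subunit genes, 67.7% of small-subunit genes and 85.7% of the 7 further genes had a KLF4 pair. These shares were not tested against each other. No KLF4 pair was listed for 31 members in any of the 3 lists.

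A KLF4 pair at day 3, at day 6 and in ES cells was listed for 8 members: Rpl3, Rps18, Rpl3l, Rpl7l1, Rps19, Rps27l, Rps28 and Rpl36. The bin assigned to Rpl3 had the most, with 9 pairs at day 3, 3 at day 6 and 5 in ES cells. The bin that holds the RefSeq start of Rpl3 had 1, 0 and 1, so by its start Rpl3 would not be among the 8. Rps18 and Rps19, whose promoters are printed above, had 3, 2 and 3 pairs and 3, 1 and 3 pairs. Rps28 had 2, 1 and 2. Rpl10, an X-linked protein of the large subunit joined late in its assembly, had 7 pairs at day 3, 0 at day 6 and 6 in ES cells. Of 95 ES KLF4 pairs at members, 93 (97.9%) were also in the ES H3K27ac list, against 80.4% at all annotated genes and 87.0% at genes with a peak at both times. Of the 70 day 3 pairs at members 34 (48.6%) recurred in the ES KLF4 list, of which they made 35.8%, and the first share was 48.3% at all annotated genes.

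In strength, few KLF4 contacts of the members changed from day 3 to ES cells. Of 34 tested pairs, the edgeR quasi-likelihood test (Benjamini-Hochberg adjusted) called 1 higher and 3 lower in ES cells, beside a percent called of 7.2 over all pairs and 6.97 at annotated genes. The pair of the Rps16 bin with the bin of Plekhg2 and Gm44710, 20 kb away, had 10.5, 10.4 and 7.16 CPM in the 3 day 3 libraries and 3.22, 3.97, 4.51 and 3.93 in the 4 ES libraries. Every day 3 value was above every ES value, and the log2 fold change was -1.16 (SE 0.22, edgeR quasi-likelihood test, Benjamini-Hochberg adjusted p = 7.33e-05). The 10 kb pair of Rpsa with the bin of Slc25a38, a mitochondrial glycine carrier, had 10.7, 13.3 and 10.0002 CPM at day 3 and 7.20, 8.10, 6.59 and 6.42 in ES cells, again without overlap, with a log2 fold change of -0.69. The bin assigned to Rpl3 had pairs in both directions. Its 10 kb pair had 8.00001, 10.4 and 9.38 CPM at day 3 and 16.0, 22.9, 16.5 and 15.4 in ES cells, a log2 fold change of 0.82. Its 30 kb pair had 6.67, 6.61 and 7.51 CPM at day 3 and 3.59, 6.53, 4.44 and 3.78 in ES cells, a log2 fold change of -0.73. The groups did not overlap in either pair, but ES library 2 came close to the day 3 values in the latter. The number called was 1 without day 3 library 1 and 2 without day 3 library 2, day 3 library 3 or ES library 4. It was 1 with DESeq2, and 2, both at bins other than that of Rpl3, without the 3 members placed outside their bins.

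Comparisons with day 6 rest on few pairs. From day 6 to ES cells edgeR called 0 of 10 member pairs, with 2 at an unadjusted p under 0.05, and DESeq2 called 0, with 0 at that level. The percent called over all pairs was 3.37 by edgeR after adjustment, and their share at the unadjusted level is not given here. From day 3 to day 6 edgeR called 1 of 11, beside a percent called of 5.33: the 10 kb pair of Rpl36 with the bin of Lonp1 and Catsperd. It had 7.11, 8.17 and 7.35 CPM at day 3 and 8.45, 7.98, 8.27 and 7.29 at day 6, so the CPM values overlapped. Its log2 fold change of 0.64 (edgeR quasi-likelihood test, Benjamini-Hochberg adjusted p = 0.041) depended on TMM scaling. Without that scaling, the median of all pairs was -0.58 in place of 0.02, 0 member pairs were higher and 6 were lower at day 6. The call was also lost when any 1 of the 7 libraries was left out. From day 6 to ES cells, 6 member pairs were higher without TMM scaling, which shifted the median of all pairs from -0.01 to 0.58. The comparisons with day 3 and with ES cells share the day 6 libraries.

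**Figure D4:**
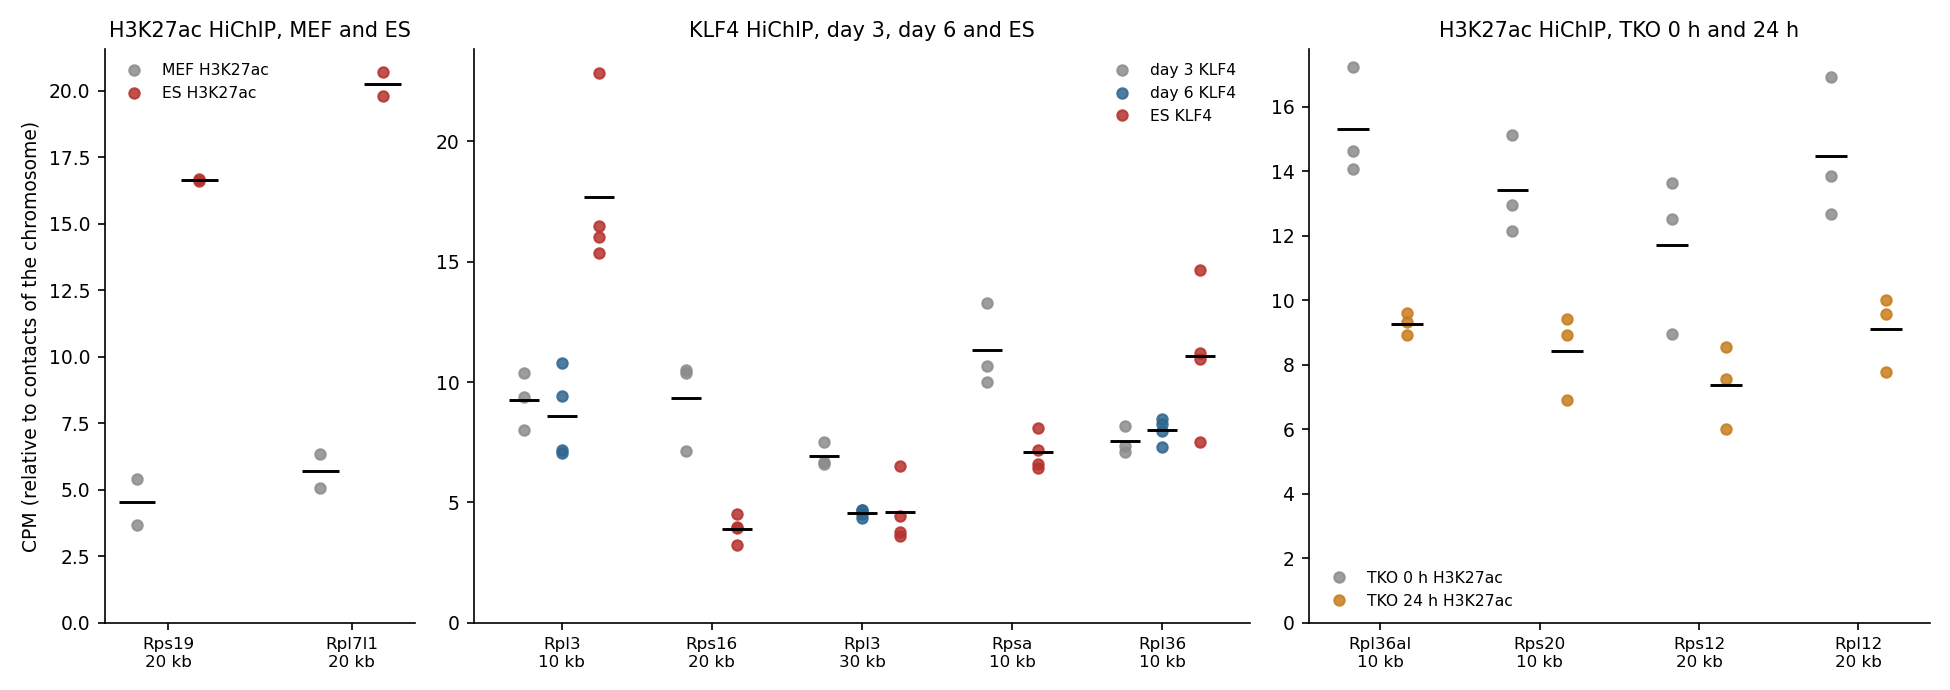
CPM, relative to all contacts of the chromosome, in each library for the pairs named by fold change that are described in the text, with 1 point per library, a horizontal bar at the mean of each group and the distance between the bins under each name. The 2 ES libraries of the Rps19 pair sit at 16.6 and 16.7, above the MEF libraries at 3.69 and 5.39.

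In TKO cells, 24 h of doxycycline left most contacts of the members in place. The TKO H3K27ac lists held 588 member pairs at 0 h and 503 at 24 h, and 447 were in both (88.9% of the 24 h pairs, 76.0% of the 0 h pairs), against 83.5% of the 24 h pairs at all annotated genes. The number of pairs was lower at 24 h for 54 members, higher for 13 and equal for 17, while 48.4% of all annotated genes had fewer and 23.8% had more. The 24 h list was also the shorter one, with 84256 pairs against 93248. Rps26 had 8 pairs at 0 h and 6 at 24 h, below the 15 of the ES list.

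Of 447 member pairs tested with edgeR, 1 was called higher and 6 lower at 24 h (1.57%), beside a percent called of 2.8 over all pairs, 0.601 higher and 2.2 lower, and of 2.35 at annotated genes. The median log2 fold change was 0.00. Among the falls, the 10 kb pair of Rpl36al had 14.6, 17.2 and 14.1 CPM at 0 h and 9.59, 9.33 and 8.91 at 24 h, a log2 fold change of -0.61. The 10 kb pair of Rps20 had 15.1, 12.2 and 12.95 CPM at 0 h and 9.43, 8.93 and 6.91 at 24 h, with a log2 fold change of -0.60. Both pairs were without overlap. Rps20 is a protein of the small-subunit head. The 20 kb pair of Rps12 had 12.5, 13.6 and 8.97 CPM at 0 h and 8.55, 7.56 and 6.02 at 24 h, with a log2 fold change of -0.60. The 20 kb pair of Rpl12, a protein of the stalk base, with the Slc2a8 bin had 12.7, 16.9 and 13.8 CPM at 0 h and 7.78, 9.56 and 10.001 at 24 h, with a log2 fold change of -0.52. The falls of Rps21 with the Lama5 bin and of a 30 kb pair of Rpl28 were smaller, at -0.48 each. Groups did not overlap in 84 pairs, 13 higher and 71 lower at 24 h, beside 3.9% higher and 17.2% lower over all pairs.

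These TKO calls were few, and their number depended on the libraries used. The number called was 2 without library 1 of 0 h, 3 without library 2 of 0 h, 6 without library 3 of 0 h, 2 without library 1 or 2 of 24 h, and 1 without library 3 of 24 h. DESeq2 called 0, and without TMM scaling 0 pairs were higher and 12 lower. The related lists had 1 pair higher and 3 lower of 279 (mitochondrial ribosome), 0 higher and 13 lower of 326 (translation factors) and 0 of 134 (assembly), by edgeR.

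Contacts of the members often led to another gene. The other bin of a MEF H3K27ac pair held an annotated gene in 46.8% of cases (95% Wilson interval 39.2% to 54.6%), against 26.7% for all annotated genes. In ES cells the values were 42.5% (38.7% to 46.5%) and 31.6%, and in the ES KLF4 list 55.2% (45.3% to 64.8%) and 30.4%. The Hi-C lists gave 35.1% against 20.9% in MEFs and 31.7% against 21.7% in ES cells. At day 6 the interval of the member value, 33.3% (15.2% to 58.3%), included the 27.2% of all genes. Gene density around the bins was somewhat higher for members. They had a mean of 4.10 other gene-holding bins within 100 kb on each side, against 3.28. The median was 3 in both. A bin outside the TKO lists could not count as holding a gene. Such bins were 1.27% of the other bins for members and 9.91% for all annotated genes in MEF H3K27ac. In MEF Hi-C they were 12.4% and 19.9%, and in ES H3K27ac 0.83% and 1.66%. The part of gene density and of such bins in the shares of gene partners was not tested. Many pairs share a bin, which the intervals do not take into account.

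**Figure D5:**
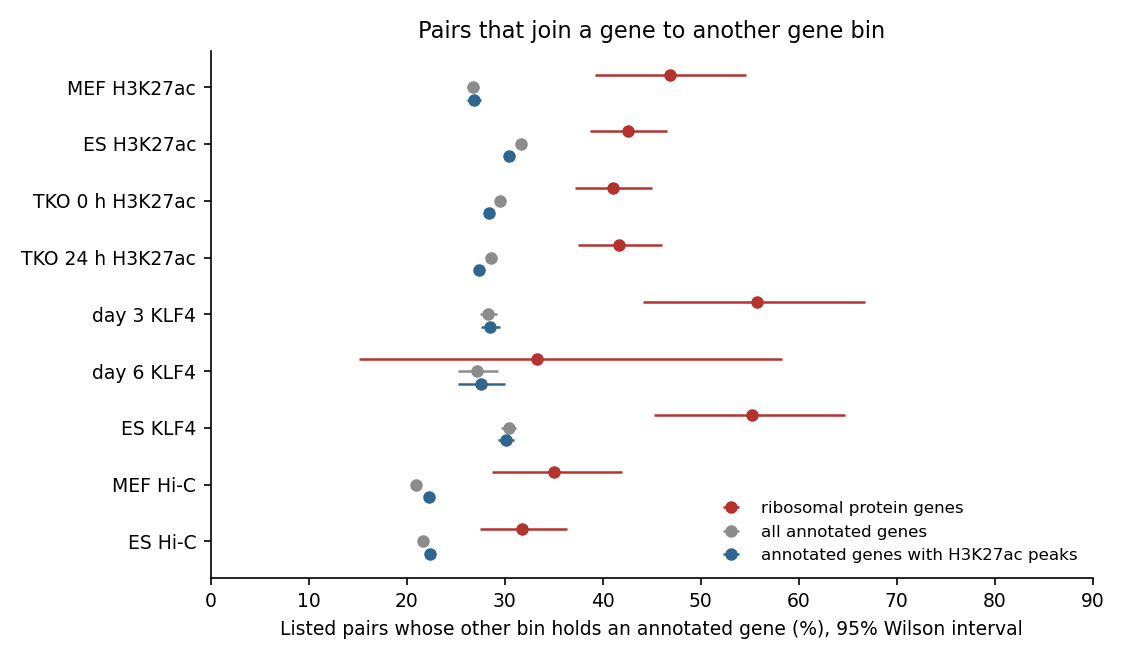
Percent of listed pairs whose other bin holds an annotated gene, with 95% Wilson intervals, in each of the 9 lists for ribosomal protein genes and the background sets. Ribosomal protein genes lie above all annotated genes in MEF H3K27ac (46.8% against 26.7%) and ES KLF4 (55.2% against 30.4%), and the wide day 6 interval spans both.

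Contacts between ribosomal protein genes were few in number, at genes that occupy 83 of 10485 annotated bins. Whether they were fewer or more than this share would give was not tested. Rps2 and Rpl3l, in adjacent bins of chromosome 17, were joined at 18.03 and 20.4 CPM in ES H3K27ac and at 9.04, 7.59, 13.4 and 12.8 CPM in ES KLF4. RefSeq places Rps2 across both of these bins, so a contact between the genes and one within Rps2 cannot be told apart. Rps29 and Rpl36al, 30 kb apart on chromosome 12, were joined at 7.36 and 7.43 CPM in ES H3K27ac. Rps28 and Rps18, 130 kb apart on chromosome 17, were joined at 5.52 and 5.74 CPM. These 3 pairs were also in both TKO lists and in neither the MEF, the day 3 and day 6, nor the Hi-C lists. Another pair, Rpl3 with Rps19bp1 over 170 kb, was in the TKO list at 0 h alone, at 4.39, 4.79 and 3.30 CPM.

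Members lay near the boundaries of topologically associating domains (TADs) more often than other genes. A boundary of the authors' ES domains lay within 40 kb of 24 of 84 members (28.6%, 95% Wilson interval 20.02% to 39.0%), against 13.4% of all annotated genes and 14.2% of genes with a peak at both times. With MEF domains it was 24 of 80 members on chromosomes with domains (30%, interval 21.1% to 40.8%), against 17.8% and 19.7%. Mitochondrial ribosomal protein genes gave 21.5% with ES domains and 27.7% with MEF domains. Translation factor genes gave 17.2% and 23.2%, and assembly genes gave 17.9% and 29.6%. With MEF domains the share was therefore not particular to the members. Numbers of pairs varied both near and far from a boundary. Rps3 lay 5 kb from a boundary in both cell types and had 0 H3K27ac pairs in MEFs and 2 in ES cells. Rpl3l also lay 5 kb from one in both and had 1 and 15. Rps18, 75 kb from a MEF boundary and 445 kb from an ES boundary, had 8 and 16. Rpl11, 585 kb from a boundary in both, had 0 and 2. Distance and number of pairs were not tested together.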

How the data were processed

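Each of 9 deposited lists pairs 10 kb bins of 1 chromosome and gives, per the file headers, a raw count and a CPM value for each library, and a p-value for each pair. In HiChIP the deposited CPM is relative to the contacts of the same chromosome, as count over CPM shows. In Hi-C the deposited column is a signal of unstated scaling. A deposited distance-normalized ratio per library and a score per domain in the authors' TAD lists were not used as values. As the values show, the authors listed HiChIP pairs at p under 0.1 and Hi-C pairs at p under 0.01, and CPM above 3 in most libraries or a Hi-C signal of at least 15. Bowtie2 2.2.3 and mm10 stand in the submitters' processing notes. The test behind the p-value is not given in the sources used here. The TKO lists, per the file headers, also give genes and H3K27ac peaks per bin.

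Members, comparison lists and tests were chosen with earlier results of these data known. Pairs with either bin at a member were counted per list, with 95% Wilson intervals, which cover counting error only, because each group has 1 list. Reads also lack molecular identifiers. Raw counts of pairs in both lists were fitted with edgeR 4.0.16 (R 4.3.3; filterByExpr, TMM, quasi-likelihood test), over all pairs and with the groups compared only, and called at a Benjamini-Hochberg adjusted p under 0.05. The test says nothing of pairs in 1 list. Libraries whose counts did not differ by a chi-square test were summed in groups where another pair of libraries differed. DESeq2 1.42.0, other scalings, filters, cutoffs, a replicate block and leaving out libraries were the alternatives. Simulated counts with known changes served to test the edgeR script. Named members were those with the most H3K27ac pairs, the largest gains and losses, a pair in all 3 KLF4 lists or no MEF pair, the stalk genes, Rpsa and the paralogues; named pairs had the largest called fold changes, up to 4 in each direction, or joined 2 members. Some genes and pairs that this rule names are not reported here, and they stay in all counts. Others named were chosen after their values were seen. Python 3.11.15 with scipy 1.17.1, pandas 2.3.3 and numpy 2.4.6 was used, and RefSeq tables of GRCm38.p6 gave gene starts and promoters.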

Additional observations from a re-analysis of the deposited data

Results flagged for a closer look

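The 10 kb KLF4 pair of the bin assigned to Rpl3 had 1 ES library far from the others: library 2 gave 22.9 CPM, while libraries 1, 3 and 4 gave 16.0, 16.5 and 15.4. Its gap to the nearest library was 0.849 of the whole range, above the 95% critical value of Dixon's test for 4 samples. Chance gives such a result in about 1 in 20 groups of independent samples, and 5 groups were tested, each at both ends. ES KLF4 libraries 1 and 2, and 3 and 4, were each counted as 1 replicate above. These 4 libraries may therefore not be independent samples.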

How the results depend on the processing

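Of 155 alternative values for the main results, 99 were kept, 55 moved and 1 turned direction. A number of called pairs was kept if equal or of similar size without a turn of direction. Values of 0 beside a main value of 0 thus counted as kept. A percent was kept if it lay within the Wilson interval of the main value. Pairs called from MEF to ES H3K27ac (61) were 39 among pairs at least 20 kb apart, 26 with DESeq2 and 38 to 52 without 1 library. For KLF4, day 3 to ES (4), the number was 2 without TMM scaling, 1 among pairs at least 20 kb apart, 1 with DESeq2, 2 without members placed in another bin and 1 to 5 without 1 library. From day 6 to ES (0) it was 6 without TMM scaling. From day 3 to day 6 (1 higher) it turned to 6 lower without TMM scaling, and was 0 with DESeq2, among pairs at least 20 kb apart and without any 1 library (0 to 0). In TKO cells (7) it was 12 without TMM scaling, 0 with DESeq2 and 1 to 6 without 1 library. Where leaving out a library left 1 in a group, it was assumed to vary like the other group. The share of all pairs called is given above for the main fits only.

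Replicate numbers did not pair the libraries (every correlation of same-numbered libraries was under 0.1 in size). With a replicate block the calls were 60 from MEF to ES, 2 from day 3 to ES, 0 from day 3 to day 6 and 7 in TKO cells. In the last 3 the block also needed libraries kept separate and shared numbers only, and the same libraries without it gave 3, 0 and 8.

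The percent of member pairs shared between lists rose where each bin could lie 1 bin away, to 95.6 (MEF and ES H3K27ac), 75.7 (day 3 and ES), 86.7 (day 6 and ES), 93.3 (day 3 and day 6), 97.6 (TKO) and 93.3 (Hi-C). With 1 minimum count for all chromosomes it was 100 for MEF and ES H3K27ac, 100 for day 6 and ES, 91.7 for TKO and 50.3 for Hi-C. With lists of equal length it was 26.7 for day 6 and ES, 40 for day 3 and day 6, 85.7 for TKO and 55.7 for Hi-C. The percent of members with a listed pair, under 1 minimum count, was 34.5 in MEF H3K27ac, 25 at day 3, 2.38 at day 6, 42.9 in ES KLF4 and 77.4 in ES Hi-C. In bins with 1 symbol it was 48.1 in MEF H3K27ac and 100 in TKO at 0 h. Among pairs at least 20 kb apart it was 95.2 in ES H3K27ac, 90.5 in TKO at 24 h and 41.7 in ES KLF4.

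Leaving out members placed in another bin, summing 2 further TKO libraries and the unblocked fit on separate libraries were chosen after seeing the data. Low counts per pair limit single contacts, and a pair missing from a list has a value known only to miss a cutoff.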

Other observations

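Some members without an H3K27ac pair in MEFs had Hi-C contacts there. Rpl11, a large-subunit protein that also binds the p53 regulator MDM2, had 0 H3K27ac pairs in MEFs and 2 in ES cells, but 4 Hi-C pairs in MEFs and 9 in ES cells. Rps3, a small-subunit protein at the mRNA entry site, had 0 and 2 H3K27ac pairs and 5 and 6 Hi-C pairs. Rps28 showed the opposite order, with 6 and 19 H3K27ac pairs and 0 and 2 Hi-C pairs. No Hi-C pair was listed in either cell type for 7 members.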
